A study of Mus musculus with 6 samples.

Results

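The genes described here build the peroxisome and make plasmalogens, and were read out in oligodendrocytes of Qk-KO and control (WT) mice. Members were taken by name: every protein-coding gene called Pex with a number (17 genes) and 16 named genes of ether lipid synthesis, peroxisomal membrane carriers and peroxisomal matrix enzymes. All 33 were found among the 46983 annotated features, and all 33 were among the 15153 features abundant enough to be tested (a mean normalized count of at least 20). The Qk-KO mice carry the alleles Plp-CreERT2 and QKLoxP/LoxP, and their libraries have the genotype label Qk-/-. The Cre recombinase, made active by tamoxifen, is driven by the Plp promoter, so the floxed Qk is removed in cells that use this promoter. The labels give the controls as WT and do not say whether they carry Cre or a floxed allele. Both groups are FvB/C57BL6 hybrids, both were given tamoxifen when 8 weeks old, and the brains were collected 4 days after that. Oligodendrocytes were isolated without culture, and total RNA was sequenced in 3 libraries per group. Whether every library comes from its own mouse is not in the labels. The p-values therefore cover only the spread among these libraries, which may be technical.

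Peroxisomes are small organelles bounded by a single membrane that shorten very long and branched fatty acids, break down hydrogen peroxide and carry out the first steps of ether lipid synthesis. Their matrix enzymes are made in the cytosol, caught by the receptors Pex5 or Pex7, brought to a docking complex of Pex13 and Pex14 and moved inside, after which a ubiquitin ligase and a motor complex return the receptor. Plasmalogens are ether phospholipids with a vinyl ether bond that are abundant in myelin, and loss of peroxisomes or of plasmalogen synthesis disturbs myelin in mice and in people. Qk encodes quaking, an RNA-binding protein of myelin-forming cells that acts on splicing and RNA stability.

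The libraries differed in kind. The signal in 4 ribosomal RNA features was 59.8% to 64.8% in the WT libraries and Qk-KO replicate 1, but 2.23% and 1.88% in Qk-KO replicates 2 and 3. Estimated reads outside these features were 8.70 M to 13.1 M (M, mega) for the former group of libraries, and 77.1 M and 70.0 M for the latter, so the members are measured more precisely in Qk-KO replicates 2 and 3. The lowest estimate for any member in any library was 26.6 reads, for Pex11g. Of 12 astrocyte markers 11 fell (Slc1a2 was at -2.48 and Atp1b2 at -3.92 on the log2 scale, Qk-KO minus WT) and the other, Gfap, was at 0.81 (adjusted p = 0.0526), and their summed level, as CPM outside the ribosomal features, was 7710 to 8943 in WT and 1073 to 1692 in Qk-KO. Of 10 oligodendrocyte markers 6 rose, Mbp by 1.07 among them, and their sum was 25999 to 31982 in WT and 32957 to 42058 in Qk-KO. No oligodendrocyte marker was called lower. Ugt8a (-0.13, adjusted p = 0.613), Cnp (0.54, adjusted p = 0.131) and Ermn (0.43, adjusted p = 0.121) did not pass. Of 8 microglia markers 4 rose (Ctss by 2.42 among them), while P2ry12 was at -0.29 (adjusted p = 0.421) and Tmem119 at 0.19 (adjusted p = 0.699). Their sums were 342 to 570 in WT, and 844, 1045 and 3597 in Qk-KO replicates 1, 2 and 3, so the upper value is that of replicate 3 alone. All 6 endothelial markers fell (Flt1 at -1.10, Slco1a4 at -0.89), with sums of 948 to 1475 and 545 to 676. Of 6 neuronal markers 1 rose (Tubb3 by 1.51; Meg3 was at 0.31, adjusted p = 0.587) and of 4 precursor markers 1 fell (Ptprz1, at -2.13; Cspg4 was at -0.44, adjusted p = 0.254), with neuronal sums of 97.2 to 127 and 164 to 248 and precursor sums of 561 to 983 and 176 to 402. None of the markers was listed at 0. These shifts run with the groups, and their part in the changes below was not tested. In bulk RNA, fewer cells of a type and less RNA per cell cannot be told apart. Qk itself was at 15.41, 15.67 and 15.31 in WT, against 16.10, 15.62 and 15.30 in Qk-KO on the regularized log2 scale (change 0.21 ± 0.25, SE, limma adjusted p = 0.567). Reads outside the floxed exons can persist after recombination, so the gene-level value is no check of the labels.

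Peroxisomal genes were called no more often than features in general, and the called members went in both directions. Of the 33 members 3 were higher in Qk-KO (Pex5l, Ech1 and Gnpat) and 4 were lower (Pex11a, Far2, Crot and Cat) by limma with Benjamini-Hochberg adjustment over all 15153 features at an adjusted p under 0.05. That is 21.2% of members, against 28.6% of all features tested. The shares in each direction were 9.09% higher and 12.1% lower, against 13.8% and 14.8% of all features. The groups did not overlap in 14 members, 7 in each direction, or 42.4%, against 46.3% of all features (24.5% higher and 21.8% lower). The median change was 0.07 on the log2 scale (Qk-KO minus WT) for members and 0.03 for all features, and the median size regardless of sign was 0.25 and 0.33. A change between -0.5 and 0.5 was found in 28 members (84.8%), against 68.1% of features. Changes are differences of the authors' regularized log2 values, which are pulled toward a gene's mean where reads are few. The authors' deposited table calls the same 7 members, in the same directions, with 32.7% of the tested features called there. Scaled to library sizes that keep the ribosomal features, the median of all features moved to 0.90 and that of members to 1.04. Pex11a, Far2, Cat and Crot then stood at 0.06, 0.25, 0.54 and 0.56, above 0 but below that shift, and no member was called lower. With no filter on low values 1 member was called in each direction (Pex5l and Pex11a), with 13.1% of 26015 features. The counts fell to 1 higher and 2 lower (Far1 higher, Cat and Pex11a lower) when Qk-KO replicate 1 was the only knockout library, where 15.5% of all features were called (6.17% higher and 9.37% lower), and to 0 higher and 2 lower (Cat and Pex11a) with the kind of library in the model, where 14.9% were (5.76% and 9.14%). The fit with a sole knockout library takes its spread from the WT libraries only and assumes that the knockout library varies like them. It therefore has no replicate check within Qk-KO. No WT library has a low ribosomal signal. With the kind of library in the model, the change is therefore again Qk-KO replicate 1 minus the WT mean. Cat was at -0.74 and Pex11a at -0.96 in both fits. These fits differ in their spread only and are not separate checks. Without WT replicate 1 the counts were 0 higher and 2 lower (17.6% of all features called), without WT replicate 2 they were 3 and 2 (22.7%), without WT replicate 3 they were 0 and 1 (16.9%), the loss of Qk-KO replicate 2 also left 0 and 1 (15.6%), and without Qk-KO replicate 1 they were 5 and 3 (37.2%). In these fits with a library left out, the members' total moved the same way as the share of all features. That was not so with sample quality weights, at 3 higher and 3 lower against 33.4% of all features. Nor was it so with the number series of the sample names in the model, at 3 and 2 against 28.5%.

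**Figure D1:**
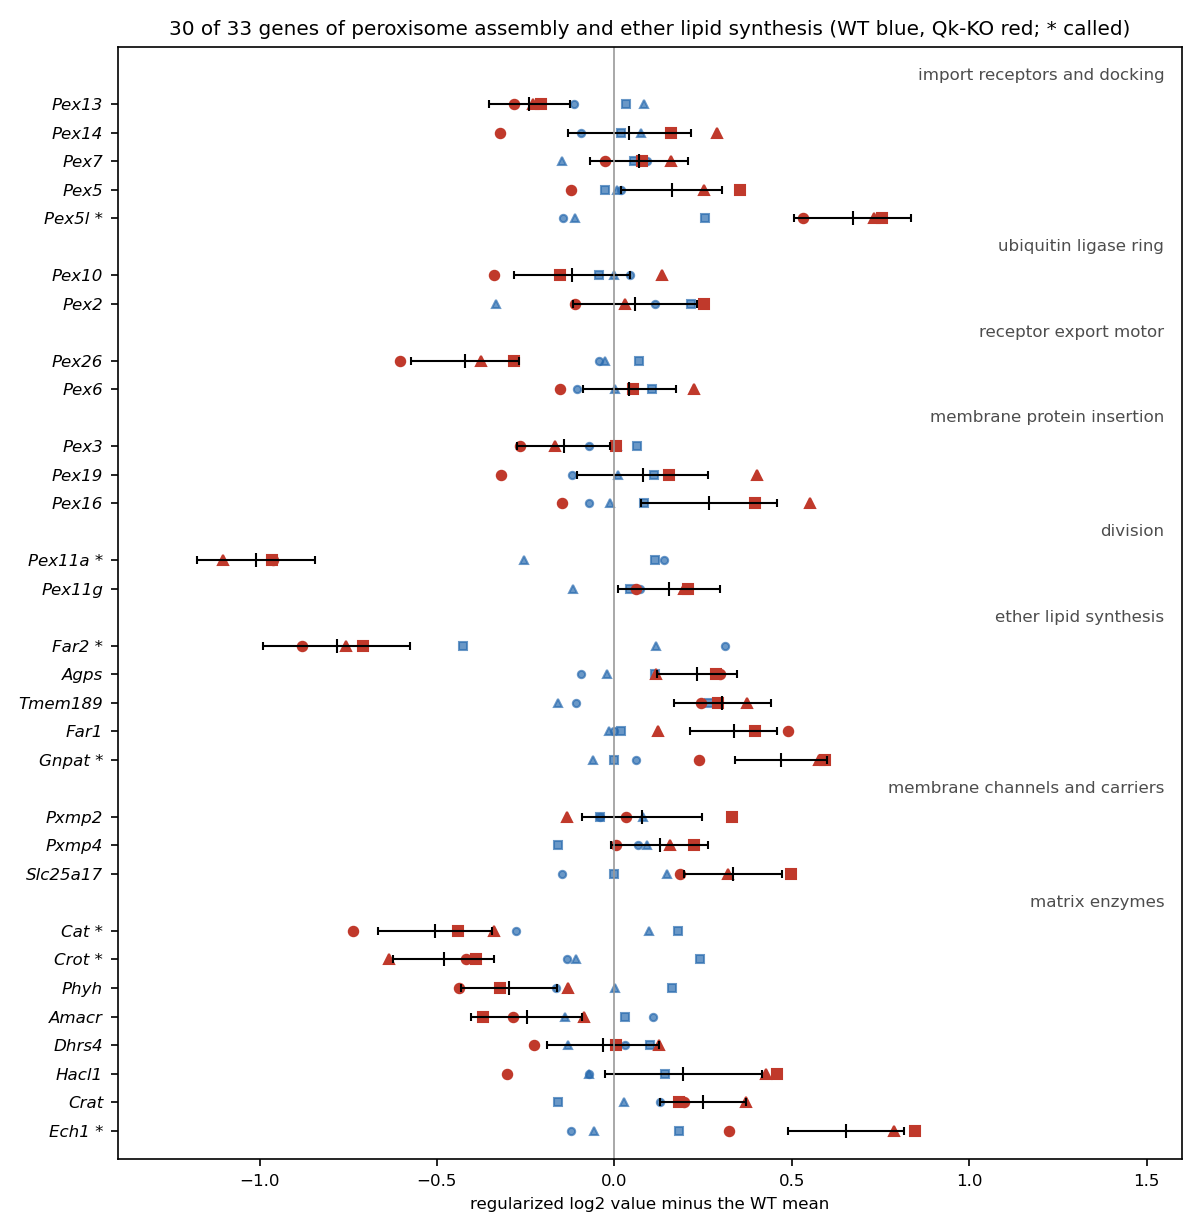
Distance of each library from the WT mean on the regularized log2 scale for 30 of the 33 members, grouped by role (blue points WT, red points Qk-KO; circle, square and triangle are replicates 1, 2 and 3) and the mean change with its standard error in black. Stars mark the 7 called members, from Pex11a at -1.01 to Pex5l at 0.67, and 25 of the 30 changes drawn lie between -0.5 and 0.5.

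The Pex11 proteins shape the peroxisomal membrane into tubules before division. Pex11a is known to respond to peroxisome proliferators, and Pex11g recruits the division machinery. Pex11a (ENSMUSG00000030545.9, chromosome 7, 79735957 to 79743131, minus strand, mm10) had log2 values of 7.45, 7.42 and 7.05 in WT, against 6.34, 6.34 and 6.20 in Qk-KO replicates 1, 2 and 3. Every Qk-KO library was below every WT library, and the 3 Qk-KO values lay close together. Pex11a fell by 1.01 ± 0.17 (SE, n = 3 per group, adjusted p = 0.00363), or 2.01-fold. The authors' deposited table, whose fold changes are not shrunken in the same way, gives -1.68 ± 0.31 (adjusted p = 8.63e-07). With Qk-KO replicate 1 as the sole knockout library, where the spread is that of WT only, it was at -0.96 (adjusted p = 0.0462). Pex11g stood between 5.90 and 6.22 in all libraries (change 0.15 ± 0.14, adjusted p = 0.446). Per kilobase of exons, Pex11a stood at 50.2 ± 7.35 normalized counts in WT and 24.7 ± 1.35 in Qk-KO (SD, n = 3).

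The 250 bases upstream of the RefSeq start of Pex11a (chromosome 7, 79743132 to 79743381, minus strand, GRCm38.p6) are printed with those of Cat (chromosome 2, 103485154 to 103485403, minus strand), another member that fell, because both genes are known to answer to peroxisome proliferators in liver. Capitals mark AGGTCA, the core element that nuclear receptors of the PPAR family recognise, on either strand.
Pex11a upstream: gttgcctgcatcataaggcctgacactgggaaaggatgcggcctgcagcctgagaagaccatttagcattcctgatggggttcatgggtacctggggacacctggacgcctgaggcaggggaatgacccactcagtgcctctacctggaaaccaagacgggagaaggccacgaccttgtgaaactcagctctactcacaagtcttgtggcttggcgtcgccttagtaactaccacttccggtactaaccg
Cat upstream: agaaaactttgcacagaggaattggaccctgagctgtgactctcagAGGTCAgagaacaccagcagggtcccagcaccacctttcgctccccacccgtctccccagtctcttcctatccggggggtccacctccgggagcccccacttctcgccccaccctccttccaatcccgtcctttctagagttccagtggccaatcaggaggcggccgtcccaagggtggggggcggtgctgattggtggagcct
The core element occurs once in the Cat window and not in that of Pex11a. Both printed windows belong to members that fell, and none of Pex5l, Ech1 or Gnpat, which rose, is printed. A part of these receptors in the changes was not tested. RefSeq upstream windows were matched for 23 members, of which 2 (Cat and Pex11g) hold AGGTCA, or 8.70%, against 15.8% of 27025 genes. The direct repeat of this element with a single base between its copies was in none of the 23 and in 0.0407% of genes. Each copy within the repeat also counts as a single AGGTCA.

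Ether lipid synthesis begins in the peroxisome with Gnpat, which acylates dihydroxyacetone phosphate, and Agps, which exchanges the acyl chain for an alkyl chain. Far1 and Far2 reduce fatty acyl-CoA to the fatty alcohol that Agps uses, and Tmem189 is the desaturase that forms the vinyl ether bond in the endoplasmic reticulum. Gnpat rose, Far2 fell, and Agps, Far1 and Tmem189 did not pass the test. Gnpat (ENSMUSG00000031985.9, chromosome 8, 124863033 to 124890057, plus strand) had log2 values of 9.88, 9.82 and 9.76 in WT, against 10.06, 10.42 and 10.40 in Qk-KO. All Qk-KO libraries were above the WT libraries, with replicate 1 the nearest to them. The change was 0.47 ± 0.13 (SE, adjusted p = 0.0291), or 1.39-fold, and 0.58 ± 0.19 in the authors' deposited table. With Qk-KO replicate 1 as the sole knockout library it was 0.24 (adjusted p = 0.328). The call was lost without WT replicate 1, 2 or 3 (adjusted p = 0.0707, 0.0745 and 0.09999), without Qk-KO replicate 2 or 3 (0.119 and 0.0672), and with library sizes that leave out the ribosomal features (0.0551).

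Far2 (ENSMUSG00000030303.15, chromosome 6, 148047259 to 148182758, plus strand) had values of 8.05, 7.31 and 7.85 in WT, against 6.85, 7.03 and 6.98 in Qk-KO. WT replicate 2 stood apart from the other WT libraries and nearest to Qk-KO. Far2 fell by 0.78 ± 0.21 (adjusted p = 0.0253), or 1.72-fold, and the authors' deposited table gives -1.20 ± 0.33. The call was lost without WT replicate 1 or 3 (adjusted p = 0.0870 and 0.0890), without Qk-KO replicate 2 (0.0686) and against WT for Qk-KO replicate 1 by itself (-0.88, adjusted p = 0.104). Its exons share 837 bases, 11.4% of their length, with Ergic2 on the opposite strand, so reads of the 2 genes may not be told apart there, since the strand setting of the counting is not given in the sources used here. Far1 had 10.53, 10.55 and 10.52 in WT, against 11.02, 10.93 and 10.65 in Qk-KO. Its groups did not overlap, but the change of 0.34 ± 0.12 missed the threshold (adjusted p = 0.0737). It was at 0.49 with Qk-KO replicate 1 as the sole knockout library (adjusted p = 0.0451, on the WT spread only) and passed without Qk-KO replicate 3 (0.44, adjusted p = 0.0257). A factor common to a whole library cancels in the difference between a pair of its genes. The regularized values used here are still pulled toward each gene's mean where reads are few. Far2 minus Far1 was -2.48, -3.24 and -2.67 in WT, against -4.17, -3.90 and -3.68 in Qk-KO, so the gap between the reductases was wider in all Qk-KO libraries. The gap grew by 1.12, a 2.17-fold lower ratio on the regularized scale. An exact two-sided permutation test of 3 against 3 libraries gave p = 0.1, the smallest it allows (0.133 adjusted over 4 pairs tested, of which 3 are given). Per kilobase, back-transformed from the regularized values, Far1 was the more abundant reductase. It was at 184 ± 2.09 in WT and 233 ± 29.9 in Qk-KO, with Far2 at 29.8 ± 7.40 and 17.0 ± 1.02.

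Agps had 10.55, 10.76 and 10.62 in WT, against 10.94, 10.93 and 10.76 in Qk-KO (change 0.23 ± 0.11, adjusted p = 0.151). The groups only just failed to overlap, with WT replicate 2 and Qk-KO replicate 3 level at 2 decimals. Gnpat minus Agps was -0.66, -0.94 and -0.86 in WT, against -0.88, -0.51 and -0.36 in Qk-KO, and these ranges overlap through Qk-KO replicate 1. The difference of 0.24 had an exact permutation p of 0.3. Tmem189 had 11.20, 11.57 and 11.14 in WT, against 11.55, 11.60 and 11.68 in Qk-KO, where only WT replicate 2 reached the Qk-KO range. Its change was 0.30 ± 0.14 (adjusted p = 0.130), and it passed without WT replicate 2 (0.44, adjusted p = 0.0398). Tmem189 shares 21.3% of its exon length with the readthrough gene model Gm20431 on the same strand, so its level is uncertain.

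**Figure D2:**
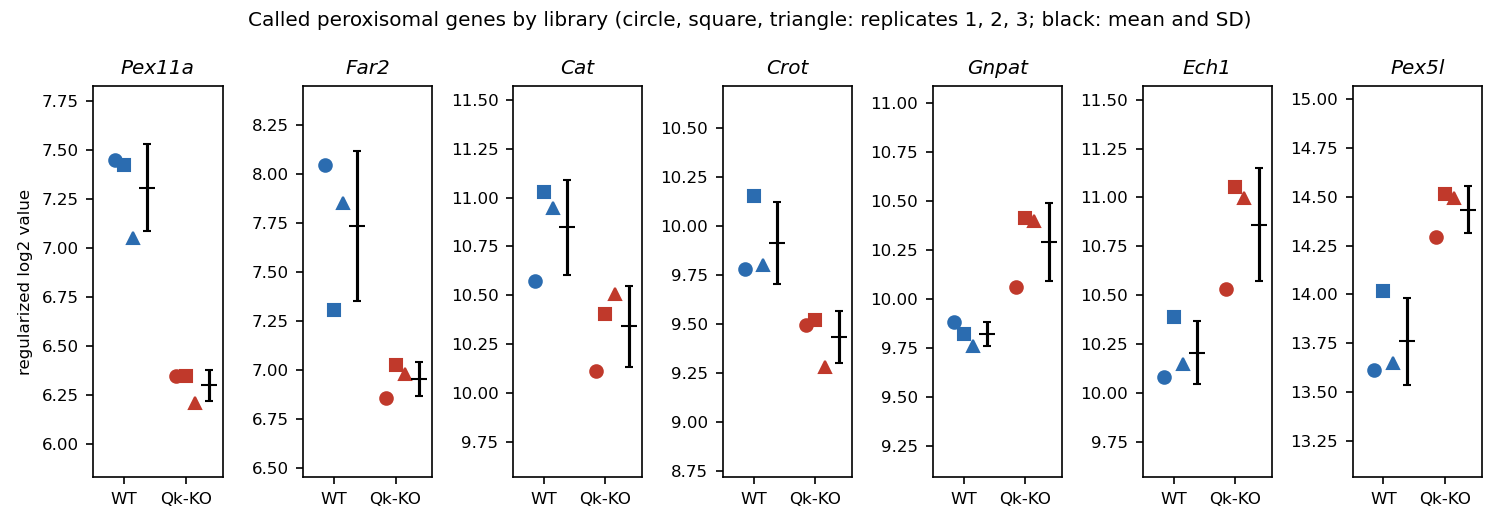
Regularized log2 values of the 7 called members in each library (WT blue, Qk-KO red; circle, square and triangle are replicates 1, 2 and 3), with the group mean and SD in black and an axis that spans 2 log2 units in each panel. WT and Qk-KO points are separate in all 7 panels, and Pex11a has the widest gap, from 7.05 in the lowest WT library to 6.34 in the highest Qk-KO library.

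Among the import receptors and docking proteins, Pex5l rose and the others did not pass. Pex5 is the receptor for the C-terminal peroxisomal targeting signal, Pex7 that for the N-terminal one, and Pex5l is a relative of Pex5 better known as TRIP8b, which controls the traffic of HCN channels in neurons. Pex5l (ENSMUSG00000027674.16, chromosome 3, 32949408 to 33143247, minus strand) had log2 values of 13.62, 14.02 and 13.65 in WT, against 14.29, 14.51 and 14.49 in Qk-KO. All Qk-KO libraries were above all WT libraries. The change was 0.67 ± 0.16 (SE, adjusted p = 0.0189), or 1.59-fold, with 0.76 ± 0.19 in the authors' deposited table. The call was lost without WT replicate 1 or 3 (adjusted p = 0.0817 and 0.0795), without Qk-KO replicate 2 (0.0841) and against WT for Qk-KO replicate 1 by itself (0.53, adjusted p = 0.118). Pex5l runs beside rises of 6 of 10 oligodendrocyte, 4 of 8 microglia and 1 of 6 neuronal markers given above. Their part in it was not tested.

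Pex5 itself had 9.67, 9.62 and 9.66 in WT, against 9.53, 10.01 and 9.90 in Qk-KO (change 0.16 ± 0.14, adjusted p = 0.421), with Qk-KO replicate 1 below WT and replicates 2 and 3 above. Within libraries Pex5l minus Pex5 was 3.95, 4.39 and 3.99 in WT, against 4.76, 4.51 and 4.59 in Qk-KO. It was higher in all Qk-KO libraries, by 0.51 (exact two-sided permutation p = 0.1, 0.133 adjusted). Pex7 stood between 7.88 and 8.19 in all libraries (0.07 ± 0.14, adjusted p = 0.732). The docking proteins Pex13 and Pex14 were at -0.24 ± 0.11 (adjusted p = 0.151) and 0.04 ± 0.17 (adjusted p = 0.879). Pex13 was lower in every Qk-KO library, from 8.93 to 9.01 against 9.10 to 9.30 in WT.

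No member of the machinery behind the docking complex passed the test. Pex2 and Pex10, of the ubiquitin ligase ring that tags the receptors for return, had changes of 0.06 ± 0.17 and -0.12 ± 0.16 (adjusted p = 0.833 and 0.616). The motor ATPase Pex6, which helps to pull the receptors out of the membrane, was at 0.04 ± 0.13, with a 95% confidence interval from -0.26 to 0.34. Pex26, the membrane anchor of the motor, had 7.29, 7.40 and 7.31 in WT, against 6.73, 7.05 and 6.96 in Qk-KO. Its groups did not overlap, but its change of -0.42 ± 0.15 missed the threshold (adjusted p = 0.0710) and passed with limma fitted without a mean-variance trend (adjusted p = 0.0488). Pex3, Pex16 and Pex19, which insert peroxisomal membrane proteins, were at -0.14 ± 0.13, 0.27 ± 0.19 and 0.08 ± 0.18 (adjusted p from 0.322 to 0.773). Pex16 and Pex19 had wide Qk-KO ranges, 8.27 to 8.97 and 9.77 to 10.49, with Qk-KO replicate 1 the lowest of the 6 libraries in both.

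Of the membrane channels and carriers none of 3 passed. Slc25a17, a carrier of cofactors such as coenzyme A, had 8.82, 8.97 and 9.12 in WT, against 9.15, 9.46 and 9.29 in Qk-KO (change 0.33 ± 0.14, adjusted p = 0.103), a narrow separation of the groups. The channel protein Pxmp2 and the membrane protein Pxmp4 were at 0.08 ± 0.17 and 0.13 ± 0.14.

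Of the 8 matrix enzymes 1 rose, 2 fell and 5 did not pass, where 13.8% of all features were called higher and 14.8% lower. Ech1 (ENSMUSG00000053898.12, chromosome 7, 28825217 to 28832247, plus strand), a dienoyl-CoA isomerase that handles unsaturated fatty acids in peroxisomes and mitochondria, had 10.08, 10.39 and 10.15 in WT, against 10.53, 11.06 and 11.00 in Qk-KO. Qk-KO replicate 1 lay between WT and the other Qk-KO libraries. Ech1 rose by 0.65 ± 0.16 (adjusted p = 0.0210), or 1.57-fold, with 0.79 ± 0.22 in the authors' deposited table. The change was 0.32 (adjusted p = 0.240) with Qk-KO replicate 1 as the sole knockout library, and the call was lost without WT replicate 1 or 3 (adjusted p = 0.0815 and 0.0774), without Qk-KO replicate 2 (0.0834) and with no filter on low values (0.0501).

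Catalase, Cat (ENSMUSG00000027187.10, chromosome 2, 103453849 to 103485160, minus strand), which breaks down hydrogen peroxide, had 10.57, 11.03 and 10.94 in WT, against 10.11, 10.41 and 10.51 in Qk-KO. WT replicate 1 and Qk-KO replicate 3 lay only a short way apart. Cat fell by 0.51 ± 0.16 (adjusted p = 0.0487), or 1.42-fold, just inside the threshold. With Qk-KO replicate 1 as the sole knockout library it was at -0.74 (adjusted p = 0.0431, on the WT spread only). The call was lost without WT replicate 2 or 3 (adjusted p = 0.143 and 0.150), without Qk-KO replicate 1 or 2 (0.0827 and 0.105) and in 6 other settings, among them the absence of a filter on low values (0.0993). Crot (ENSMUSG00000003623.4, chromosome 5, 8966033 to 8997324, minus strand), the carnitine octanoyltransferase that passes shortened fatty acids on to mitochondria, had 9.78, 10.15 and 9.80 in WT, against 9.49, 9.52 and 9.28 in Qk-KO. Its groups did not overlap. Crot fell by 0.48 ± 0.14 (adjusted p = 0.0376), or 1.40-fold. Its call was lost without WT replicate 1, 2 or 3 (adjusted p = 0.0639, 0.102 and 0.0731), without Qk-KO replicate 2 or 3 (0.0816 and 0.0862) or against WT for Qk-KO replicate 1 by itself (-0.42, adjusted p = 0.190). The falls of Pex11a, Far2, Cat and Crot were in libraries in which the summed astrocyte markers were at 1073 to 1692 against 7710 to 8943 in WT, and the part of this in them was not tested.

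The carnitine acetyltransferase Crat had 10.01, 9.72 and 9.91 in WT, against 10.08, 10.06 and 10.25 in Qk-KO (change 0.25 ± 0.12, adjusted p = 0.157), so its direction was opposite to that of Crot. The alpha-oxidation enzymes that remove the first carbon of phytanic acid, Phyh and Hacl1, were at -0.30 ± 0.14 (adjusted p = 0.134) and 0.19 ± 0.22 (adjusted p = 0.538). Hacl1 had 7.47 in Qk-KO replicate 1, below all WT libraries, and 8.23 and 8.21 in replicates 2 and 3, above them, and without Qk-KO replicate 1 it passed (0.44, adjusted p = 0.0494). Hacl1 shares 31.1% of its exon length with the gene model Gm49387, which has no entry among the features counted here. Amacr, which changes the stereochemistry of branched acyl-CoAs, and the reductase Dhrs4 were at -0.25 ± 0.16 and -0.03 ± 0.16.

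Per kilobase of exons the WT levels of the members, back-transformed from the regularized log2 values, spanned 83.1-fold, with a median of 128. Such levels are pulled toward a gene's mean where reads are few. Pex5l was the most abundant, at 1582 ± 253 (SD, n = 3) in WT and 2506 ± 206 in Qk-KO, above Tmem189 at 781 ± 130 and 956 ± 43.4. Tmem189 and the third, Cat, at 712 ± 115 in WT, did not differ beyond their spread. Ech1 (520 ± 59.1) and Phyh (495 ± 56.3) followed and also overlapped. The lowest were Pex11g, at 19.0 ± 1.31 in WT and 21.2 ± 1.18 in Qk-KO, and Pex7, at 21.6 ± 1.89 and 22.7 ± 1.47, whose WT ranges overlap. On the log2 scale not divided by length, Pex7 had 8.12, 8.08 and 7.88 in WT, against 8.00, 8.10 and 8.19 in Qk-KO, and Pex11g 6.09, 6.06 and 5.90 against 6.07, 6.22 and 6.21. Pex5, the receptor, stood at 204 ± 3.40 per kilobase in WT, so that Pex5l exceeded it in every library.

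**Figure D3:**
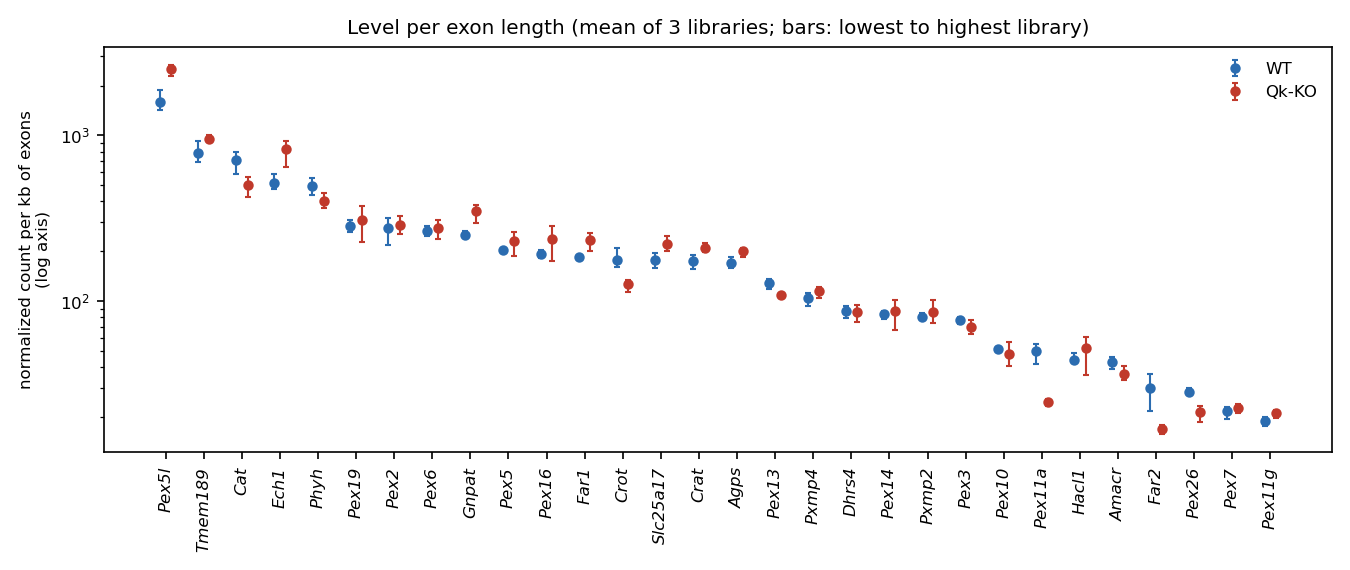
Back-transformed regularized log2 value per kilobase of exons (log axis, labelled as normalized count) for 30 of the 33 members, ordered by WT mean (blue WT, red Qk-KO). Points are means of 3 libraries and bars run from the lowest to the highest library. Pex5l leads at 1582 in WT and 2506 in Qk-KO, and Pex11g is lowest at 19.0 and 21.2.

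Within Qk-KO, many members stood higher in the libraries with little ribosomal signal. Of 33 members 23 (69.7%) were higher in both Qk-KO replicates 2 and 3 than in replicate 1, against 43.5% of all features tested, and 6 were lower in both. The median difference from the WT mean was -0.15 in Qk-KO replicate 1 and 0.16 and 0.13 in replicates 2 and 3. Over all features it was 0.02, 0.03 and 0.04. Pex14, Pex16, Pex19, Pex5 and Hacl1 were below the WT mean in replicate 1, at -0.32, -0.15, -0.32, -0.12 and -0.30 from it, and above it in the mean of the other replicates, at 0.22, 0.47, 0.28, 0.30 and 0.44. Dhrs4, Pex2, Pex6 and Pex7 also changed sign. They were at -0.23, -0.11, -0.15 and -0.03 in replicate 1 and at 0.07, 0.14, 0.14 and 0.12 in the mean of the other replicates. Pex16, like Hacl1, passed without Qk-KO replicate 1 (0.47, adjusted p = 0.0271). Pex11a, Far2, Crot and Cat were below the WT mean, and Pex5l, Ech1 and Gnpat above it, in all 3 Qk-KO libraries. Ribosomal content and depth differ between the 2 kinds of Qk-KO library, and no WT library has a low ribosomal signal, so genotype and kind of library cannot be told apart in replicates 2 and 3.

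**Figure D4:**
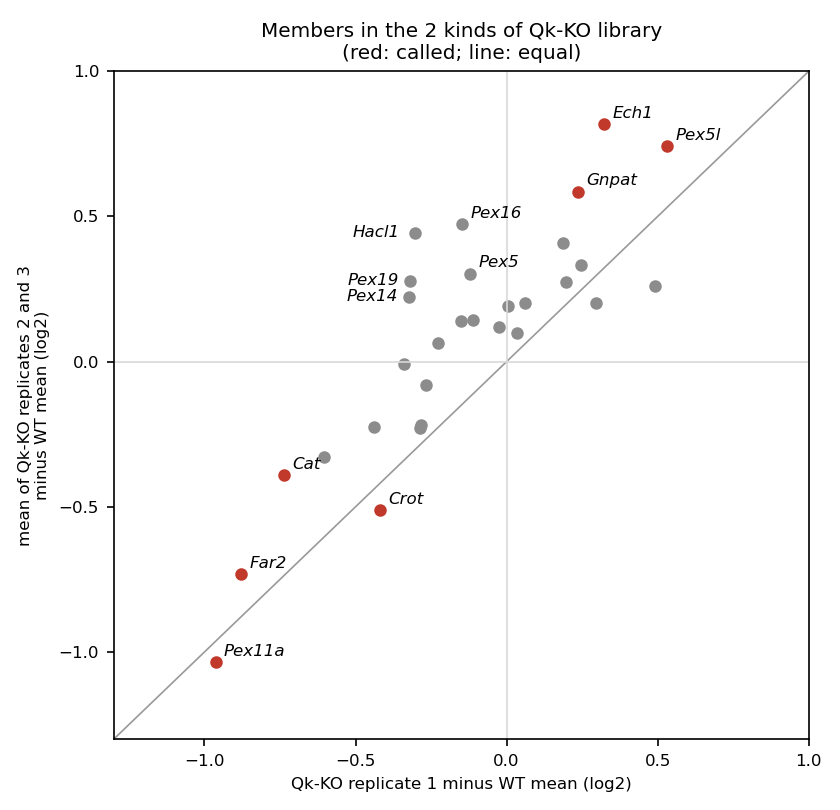
Difference from the WT mean (log2) of 30 members in Qk-KO replicate 1 (horizontal axis) and in the mean of Qk-KO replicates 2 and 3 (vertical axis), called members in red and others in grey, with a line where both are equal. Most points lie above the line, and Hacl1, Pex16, Pex19, Pex14 and Pex5 lie left of 0 and above 0, as do Dhrs4, Pex2, Pex6 and Pex7. The 7 called members have the same sign on both axes.

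Quaking binds RNA at the motif ACUAAY, written ACTAAC or ACTAAT in the annotation's transcripts, and the longest annotated 3′ UTR of each gene was searched for both on the sense strand. ACTAAC was present in 8 of 33 members (24.2%), against 20.1% of 13301 tested protein-coding genes, and ACTAAT in 6 (18.2%), against 23.8%. Median 3′ UTR lengths were 1153 and 1251 bases. Of the 7 called members only Far2 and Pex5l held either motif, 1 ACTAAT each, and both had ACTAAC 0 times. Phyh, Far1, Agps and Pex13, which did not pass, held both. Of 17 motifs in the members, 5 are printed with 10 bases on each side and the motif in capitals: those of the 2 called members, and the first ACTAAC of Far1, Agps and Phyh (GENCODE M21, mm10).
Pex5l, chr3:32950624-32950649, minus strand: aataaaggatACTAATgtgtcttctg
Far2, chr6:148181666-148181691, plus strand: cccacaaggtACTAATgtgtgttgtt
Far1, chr7:113569988-113570013, plus strand: atgaaaacacACTAACctttttatga
Agps, chr2:75926244-75926269, plus strand: tttatagccaACTAACtggttgtcgt
Phyh, chr2:4938677-4938702, plus strand: tttaagaaaaACTAACctagggtgta
The Pex5l site begins 30 bases into the 3′ UTR and the first Agps site 211 bases into it. Far1 holds 3 such motifs and Agps 3. A match is a description of these letters and not evidence of binding.

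Other genes of the pathway were read from 5 lists: 52 genes, all found, of which 46 were tested, 6 rose and 10 fell. That is 34.8%, against the 28.6% of all features. The number of rises fell to 2 when WT replicate 3 was left out and to 3 when Qk-KO replicate 2 was, and reached 10 when Qk-KO replicate 1 was. Oxidases, proteases and antioxidant enzymes of the matrix held the largest falls. Ephx2, an epoxide hydrolase, had 8.18, 8.84 and 8.45 in WT, against 6.56, 6.995 and 6.37 in Qk-KO, and fell by 1.85 ± 0.23 (limma adjusted p = 0.00106). Pipox, which oxidises pipecolic acid, was at -1.53 ± 0.20, the D-amino acid oxidase Dao at -1.43 ± 0.18 and the D-aspartate oxidase Ddo at -1.25 ± 0.14, and all 3 passed as lower. In Qk-KO replicate 1, all 4 were below the lowest WT library. The polyamine oxidase Paox rose by 0.93 ± 0.19, so that 1 rose and 4 fell of 11 tested in this list. Sod1, Gstk1, Prdx5, Lonp2, Tysnd1 and Idh1 did not pass, Hao1 and the genes listed at 0 (Hao2 and Agxt) were not tested, and Idh1 was at -0.66 in Qk-KO replicate 1 against the WT mean. Dao is known from astrocytes, most of whose markers fell in the same libraries, and the part of this in its fall was not tested.

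Of 9 genes of lipid import and tethering 3 fell and 1 rose. The fatty acyl-CoA transporters Abcd3 and Abcd2 were lower, at -0.76 ± 0.12 and -1.04 ± 0.27, as was Acbd5, which ties peroxisomes to the endoplasmic reticulum, at -0.56 ± 0.10. A partner in the endoplasmic reticulum, Vapa, rose by 0.46 ± 0.10. Vapb, of the same list, was at -0.12 ± 0.11 (limma adjusted p = 0.472). Abcd2 was uneven, at 9.67, 9.62 and 9.62 in WT, against 8.09, 8.42 and 9.29 in Qk-KO, with replicate 3 near WT. Of 11 tested beta-oxidation genes 1 fell and 1 rose, the reductase Pecr, by 0.68 ± 0.21 (adjusted p = 0.0441). With Qk-KO replicate 1 as the sole knockout library none of the 6 rises passed.

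Of 7 genes of division and turnover 3 rose and 1 fell. Fis1 and Gdap1, which act in the division of both mitochondria and peroxisomes, rose by 0.94 ± 0.20 and 0.87 ± 0.21. Usp30, a deubiquitinase that restrains the removal of both organelles, rose by 0.62 ± 0.13, and the ubiquitin ligase Trim37 fell by 0.50 ± 0.12. Fis1 had 10.42, 10.59 and 10.28 in WT, against 10.90, 11.56 and 11.67 in Qk-KO, again with replicate 1 nearest to WT. Among 8 genes of later ether lipid steps and turnover only Chpt1, a cholinephosphotransferase, passed. It had 10.82, 11.03 and 10.64 in WT, against 9.88, 9.45 and 9.25 in Qk-KO and fell by 1.31 ± 0.18 (adjusted p = 0.00179). Dhrs7b, the reductase of the alkyl intermediate that follows Agps, and Selenoi, the ethanolamine phosphotransferase, did not pass.

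**Figure D5:**
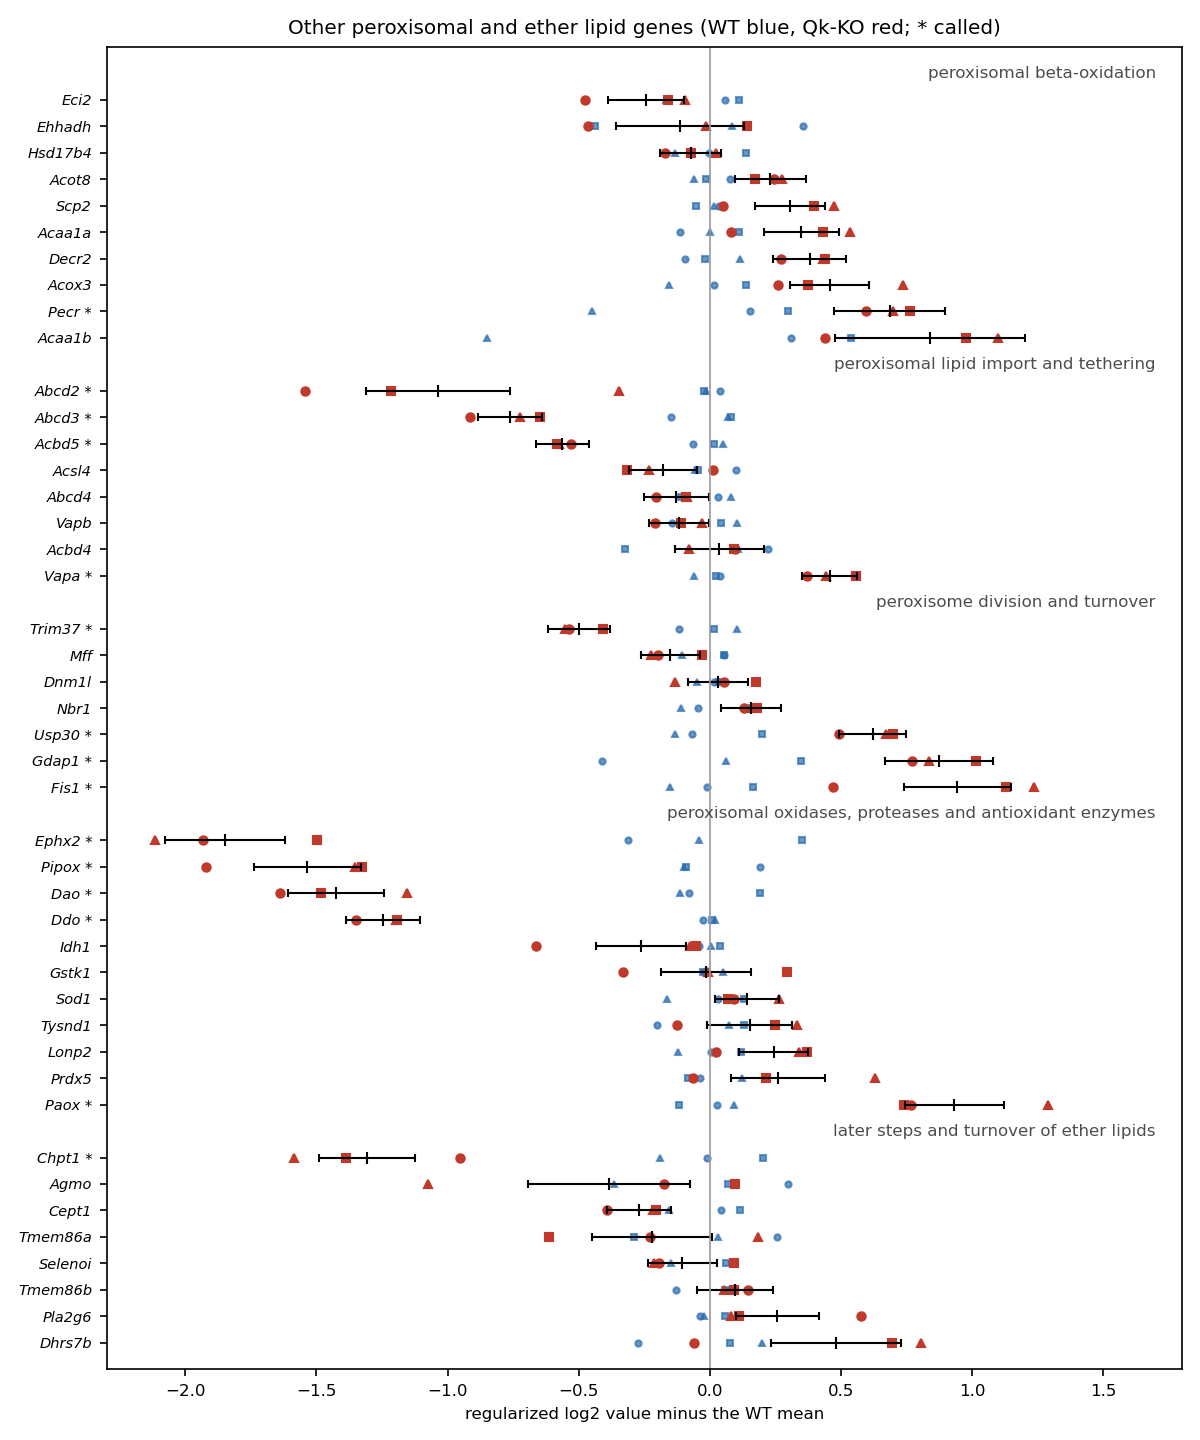
Distance of each library from the WT mean on the regularized log2 scale for 44 of the 46 tested genes of the 5 related lists, drawn like the plot of members by role, with stars on the 15 called genes drawn. Ephx2 is lowest at -1.85 and Fis1 is highest among called genes at 0.94.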

How the data were processed

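RNA-seq covered oligodendrocytes in 3 WT and 3 Qk-KO libraries, grouped by title. FastQC, TopHat2 2.0.14, featureCounts and DESeq2, with build mm10, appear in the submitters' processing notes; for the annotation release and strandedness, the sources used here have no entry. Library values were deposited on a log2 scale and behave like regularized log2 values (the back-transformed mean over the mean normalized count has a median log2 ratio of -0.016). The authors' mean normalized count (a signal over all 6 libraries) was deposited beside their log2 fold change with its error, a Wald score and p-values, raw and adjusted, as named per the file headers. Steps among the lowest mean normalized counts gave size factors and hence approximate reads.

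Features whose mean normalized count reached 20 (15153) were fitted with limma 3.58.1 in R 4.3.3, using a mean-variance trend and genotype as the only term; no pseudocount was added, and Benjamini-Hochberg adjustment ran over all of them. Any adjusted p not credited to the authors is limma's. The fit was tested on simulated data in which 200 of 15153 genes changed by known amounts. It picked up 2.60% of the genes set to a log2 change of 0.5 in size. The share was 54.8% at a size of 1 and 90.2% at a size of 2. Genes left unchanged made up 7.14% of its calls. Far fewer genes were changed there than the 28.6% of features called in the real fit, so the cut on p was stricter. The simulated noise was normal and did not differ between kinds of library. These shares therefore do not give the share of real changes found here. Alternatives were other filters, library-size scaling (log2 of CPM plus 1), no trend, a replicate block, the number series in the sample names, the library type, sample weights, the authors' comparison and leaving out each library. Exon lengths come from GENCODE M21, which held all 33 member identifiers. Called members, 3 of 4 pairs and the extremes by length are given per library, and up to 4 called genes per related list. Results for some members and related genes are not reported here, though counts and medians include them. Other genes named were chosen after their values were seen. Members, lists and pairs were chosen with earlier results of these data known.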

Additional observations from a re-analysis of the deposited data

How the results depend on the processing

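Of 17 alternatives, the lower call was kept in 16 for Pex11a, 9 for Far2, 7 for Cat and 6 for Crot, and the higher call in 12 for Pex5l, 11 for Ech1 and 8 for Gnpat. The library type in the model and Qk-KO replicate 1 only count as separate alternatives here, though both give the same change for each gene. Members called higher (3) and lower (4) became 1 and 1 with no filter on low values, 3 and 0 by library size with ribosomal features, 3 and 1 by library size without them, 3 and 2 with the number series in the model, 0 and 2 with the library type in the model, and 1 and 2 with Qk-KO replicate 1 as the only knockout library. Leaving out 1 library gave 0 to 5 higher and 1 to 3 lower. Related genes called higher (6) became 1 with the library type in the model and 0 with Qk-KO replicate 1 only, and 2 to 10 with 1 library left out, and those called lower (10) became 0 by library size with ribosomal features. The related gene called higher with the library type in the model was Pla2g6 (0.58), which is not among the 6 of the main fit. The median change of members (0.07) became 1.04 by library size with ribosomal features and -0.15 with the library type in the model or Qk-KO replicate 1 only. Over all features 4330 were called, against 2377 by library size with ribosomal features, 2258 with the library type, 2355 with Qk-KO replicate 1 only, and 2663, 2568 and 2370 without WT replicate 1, WT replicate 3 and Qk-KO replicate 2. The no-filter fit adjusts over 26015 features. Beyond that, the cause of these moves was not tested.

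By library size with ribosomal features the sign turned for Amacr (0.62), Cat (0.54), Crot (0.56), Dhrs4 (0.85), Far2 (0.25), Pex10 (0.79), Pex11a (0.06), Pex13 (0.77), Pex26 (0.54), Pex3 (0.84) and Phyh (0.74), beside an all-feature median of 0.90. Library size without them turned Dhrs4 (0.013), the number series Dhrs4 (0.00059), and sample weights, whose estimation stopped before convergence, Dhrs4 (0.012). With the library type in the model or Qk-KO replicate 1 only, Hacl1 (-0.30), Pex14 (-0.32), Pex16 (-0.15), Pex19 (-0.32), Pex2 (-0.11), Pex5 (-0.12), Pex6 (-0.15) and Pex7 (-0.026) turned. Without WT replicate 1 Pex14 (-0.0046) and Pex6 (-0.011) turned, without WT replicate 2 Dhrs4 (0.019), and without WT replicate 3 Pex2 (-0.11) and Pex7 (-0.0034). Without Qk-KO replicate 1 Dhrs4 (0.065) turned, without replicate 2 Pex14 (-0.016), Pex2 (-0.041) and Pxmp2 (-0.050), and without replicate 3 Pex14 (-0.082), Pex19 (-0.082) and Pex6 (-0.050). The cause was not tested. Over all left-out libraries, the highest or lowest values at the other end were 0.22 for Pex14, 0.28 for Pex19, 0.17 for Pex2, 0.14 for Pex6, 0.12 for Pex7 and 0.18 for Pxmp2. The within-library differences of the 3 pairs given kept their sign whichever library was left out.

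A replicate block called 3 members higher and 4 lower, as without it, and 4345 features in all. Same-numbered libraries had correlations of deviations of 0.104, 0.0046 and 0.082, and WT replicate 2 correlated best with Qk-KO replicate 1, so the shared numbers were not taken as pairing.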
